A study of Mus musculus with 8 samples.

Results

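The 42 genes described here are the amino acid transporter families Slc1a, Slc3a, Slc6a, Slc7a, Slc36a, Slc38a and Slc43a as they appeared in mouse liver RNA. A gene was a member if its symbol was one of these family names followed by digits only and its mean over all 8 livers was 3 or more normalised read counts. Of 22052 genes in the table, 51 had such a symbol and 42 met the level. By family these were 6 Slc1a, 2 Slc3a, 11 Slc6a, 9 Slc7a, 2 Slc36a, 9 Slc38a and 3 Slc43a genes. The livers came from male C57BL/6 mice aged 8 weeks, all given corn oil into the peritoneum and all carrying floxed alleles of both Zfp36l1 and Zfp36l2. The 4 double knockout mice (dKO, Zfp36l1fl/fl/Zfp36l2fl/fl/Alb-Cre) also carried Alb-Cre, a recombinase driven by the albumin promoter and thus made by hepatocytes, which removes the floxed parts of both genes. The 4 control mice (Zfp36l1fl/fl/Zfp36l2fl/fl) had no Cre. The design therefore does not part the deletion from the presence of Cre. The comparison asks which transporter transcripts differed when both genes were deleted in the liver.

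Amino acids cross cell membranes through solute carriers that differ in substrate, in coupling to sodium or protons, and in whether they import or exchange. Several Slc7a proteins are light chains that reach the membrane only when bound to a heavy chain, Slc3a2 (CD98) or Slc3a1. Liver sorts these carriers by zone: periportal hepatocytes take up glutamine and other amino acids for urea and glucose synthesis, and the hepatocytes around the central vein take up glutamate and make glutamine from it. The deleted genes encode proteins that attach to AU-rich stretches after the coding sequence, in the 3' UTR, and bring about the breakdown of such mRNAs.

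The core of the sequence that these proteins bind, TATTTAT in DNA letters, was searched for on the transcript strand in the annotated 3' UTRs of the members. It occurred in 10 of 42 members, which is 23.8%, and in 30.1% of 15424 tested genes with a 3' UTR. Among members it was present in 3 of the 17 that rose (Slc7a6, Slc36a4 and Slc38a1), in 1 of the 3 that fell (Slc1a2) and in 6 of the 22 that were not called, which is 17.6%, 33.3% and 27.3%. Over all tested genes it was in 33.1% of those that rose, 26.7% of those that fell and 29.9% of those not called. The sites of these 4 called members and of Slc38a2, a well-studied glutamine carrier that was not called, are shown because they hold the letters that the deleted proteins are known to bind. Capitals mark the heptamer, each line gives 30 bases of the transcript strand, and positions are on mm10 (GRCm38).
Slc38a1 site 1: tgaattgtataTATTTATtttgctttacag
Slc38a1 site 2: tatttgcagcaTATTTATttgcaggaagca
Slc7a6 site: ctgtatgtcatTATTTATtgatatttaatc
Slc36a4 site 1: atcatttcttaTATTTATttttctttgtaa
Slc36a4 site 2: aaattttatttTATTTATtgttatatggct
Slc1a2 site 1: caaacatgactTATTTATattgtaagtttg
Slc1a2 site 2: ttctttgctatTATTTATacagagaatatt
Slc1a2 site 3: tatacagagaaTATTTATagtcctggatat
Slc38a2 site 1: aactgtactgtTATTTATagagcagcatta
Slc38a2 site 2: ctatttttcaaTATTTATgataaactgtac
The Slc38a1 sites lie on the minus strand at chr15:96576275-96576304 and chr15:96574571-96574600, and the Slc7a6 site on the plus strand at chr8:106197588-106197617. Those of Slc36a4 lie on the plus strand at chr9:15742283-15742312 and chr9:15742483-15742512. Those of Slc1a2 lie on the plus strand at chr2:102786080-102786109, chr2:102788059-102788088 and chr2:102788074-102788103, the second and the third of which overlap. Those of Slc38a2 lie on the minus strand at chr15:96687930-96687959 and chr15:96687884-96687913. A match is a string of letters in an annotated 3' UTR, and binding was not measured here.

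Transporter transcripts rose far more often than they fell. A member was called when limma gave an adjusted p below 0.05 (Benjamini-Hochberg over 20055 genes, 2-sided) on log2(value + 0.5). At few reads, a change on this scale can be smaller or larger than the ratio of the group means gives. Slc7a11, for example, had a log2 change of 2.36 with a ratio of means of 1.59. Log2 changes are dKO minus control and stand with their standard error. In dKO livers 17 of 42 members (40.5%) were higher, against 24.7% of the 16457 genes that reach the same mean, and 3 members (7.14%) were lower, against 20.3% of those genes. Of the members, 11 (26.2%) were higher by 2-fold or more (6 under quantile normalization), against 14.4% of the 16457 genes, and 3 (7.14%) were lower by 2-fold or more, against 4.45%. Among the called members, Slc1a6, Slc7a15 and Slc6a21 had a mean under 3 in 1 group and met the level through the other group. With the filter at a mean of 10, 15 of 33 members were higher and 2 lower. Of the 14132 genes tested there, 3850 were higher and 3409 lower. All 4 dKO values lay on one side of all 4 control values for 16 members (38.1%), a share close to the 43% of all these genes. The median log2 change was 0.28 over the members and 0.01 over the 16457 genes. Without control 4, 18 of 42 members were higher, 15 of them by 2-fold or more, and 3 were lower. Of the 20059 genes tested without it, 4296 were higher and 3305 lower. No test was made of the members as a group.

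**Figure D1:**
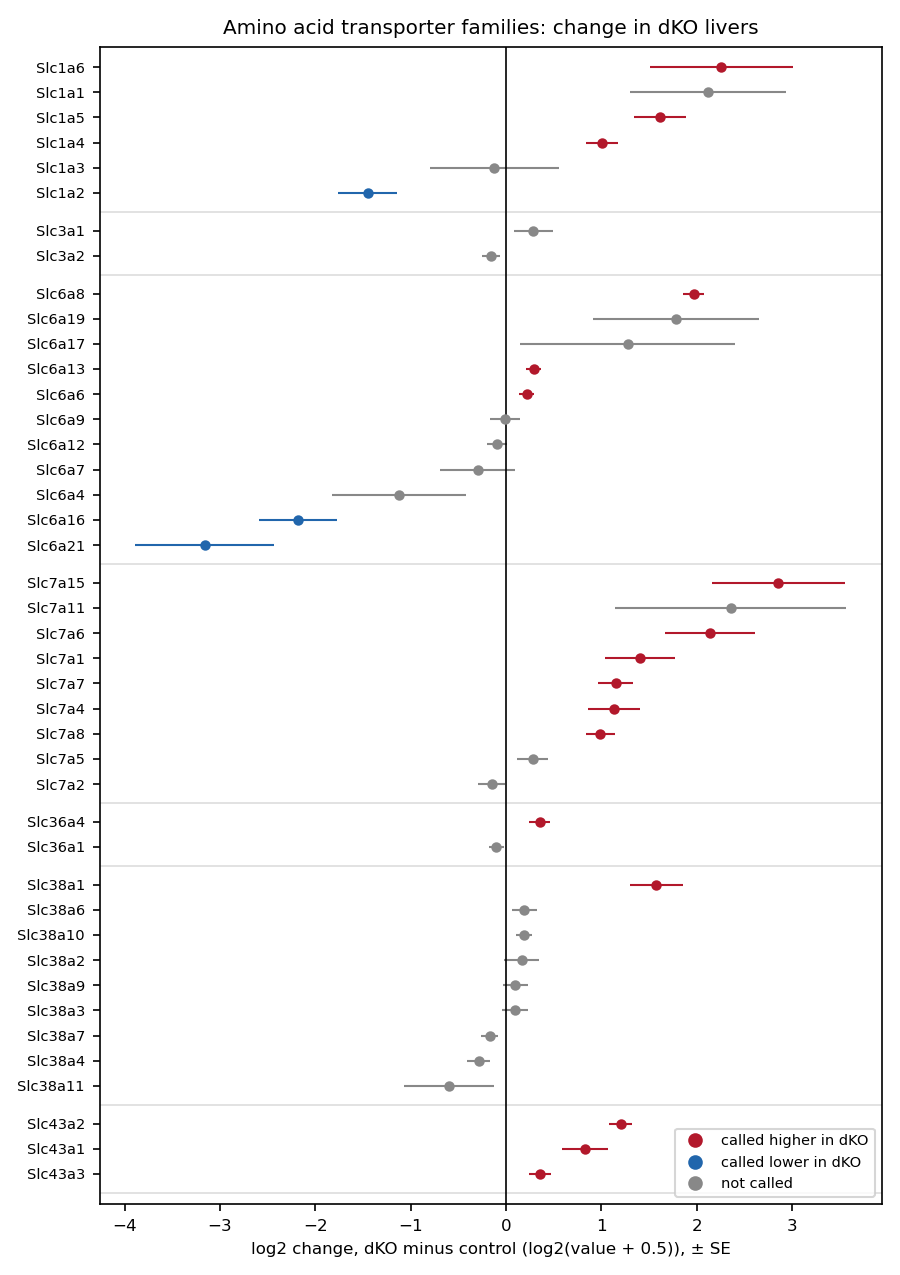
Log2 change of each of the 42 members, dKO minus control, with its standard error, ordered by size within each family. Slc1a, Slc7a and Slc43a hold most of the called rises, 3 of 6, 6 of 9 and 3 of 3 genes, the Slc38a genes cluster near 0 except Slc38a1 and Slc38a11, and Slc1a2, Slc6a16 and Slc6a21 are the 3 called falls.

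Zfp36l1 averaged 226 ± 27.6 in dKO livers and 1370.2 ± 194 in control livers, and Zfp36l2 averaged 796 ± 94.4 in dKO livers and 1584 ± 393 in control livers (SD, n = 4 each; in normalised read counts, as all levels below unless given per kb). Which exons are removed is not given in the labels, and a whole liver also holds cells without Cre activity. The libraries held 15253827 to 19299556 reads. Marker genes of several other liver cells moved with genotype: 9 of 10 macrophage and Kupffer cell markers, 9 of 9 neutrophil markers, 7 of 10 stellate cell and fibroblast markers and 6 of 8 cholangiocyte markers were higher in dKO livers and none of these was lower. Of 8 T and NK cell markers 2 were higher and 0 lower, and of 8 endothelial markers 4 were higher and 1 lower. Of 6 erythroid markers 4 were higher and 1 lower, and of 7 B and plasma cell markers 1 was higher and 3 lower. Macrophage markers summed to 14792 to 23342 in dKO livers and 7105 to 11003 in control livers, and neutrophil markers to 726 to 1028 in dKO livers and 77.0 to 357 in control livers. Stellate cell markers summed to 24109 to 32919 in dKO livers and 4396 to 13795 in control livers, and cholangiocyte markers to 8132 to 12419 in dKO livers and 942 to 1761 in control livers. The neutrophil genes Ly6g, Ltf and Mpo were listed at 0 in every control. In dKO livers Ltf had 16.8 to 78.4, Mpo 3.70 to 14.0 and Ly6g only 0.92 to 4.26. The part of these cells in the members' changes was not tested. In bulk tissue, fewer cells of a type and less RNA per cell cannot be told apart. Hepatocyte markers summed to 1286651 to 1356064 in dKO livers and 1289926 to 1437864 in control livers, with 1 of 10 higher and 4 lower. Control 4 stood apart from the other controls on the first principal component (−43.3, against −76.5 to −67.7 for controls 1 to 3 and 57.5 to 68.9 for dKO livers). Its stellate marker sum was 2.63 times, and its neutrophil sum 3.40 times, the mean of the other controls. Among the 17 members that rose, control 4 was the highest control for 9.

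The carriers that make up most of the liver's transporter RNA were not called, although under quantile normalization Slc38a3 was called higher (log2 change 0.37) and the change of Slc7a2 turned to 0.13. Levels per kb of exon allow only a rough comparison of genes. The length is that of all annotated exons of a gene merged, and not that of the transcript used in liver. Slc38a3 ranked first with 6340.3 per kb in dKO livers and 6015 per kb in control livers. Slc38a4 was second with 4808 per kb in dKO livers and 5796 per kb in control livers. Slc7a2 was next with 1762 per kb in dKO livers and 1936 per kb in control livers. Together these 3 held 71.2 ± 2.19% of the summed level of all members in dKO livers and 74.7 ± 3.06% in control livers. The whole sum was 18105 ± 1924 per kb in dKO livers and 18374 ± 1478 per kb in control livers, a difference smaller than either SD. The 17 members that rose held 14.3 ± 1.79% of it in dKO livers and 10.5 ± 1.11% in control livers.

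The median change of the members was larger at lower levels, and over all genes it was also highest at the lowest level. Of the 14 members at 100 per kb or more, 3 rose and 1 fell, with a median log2 change of 0.00, while 21.8% of all genes at that level rose and 32.5% fell, with a median of −0.09. Of the 12 members at 10 to 100 per kb, 8 rose and none fell, with a median of 0.91, while 25.7% of all genes at that level rose and 19.5% fell, with a median of 0.00. Of the 16 members under 10 per kb, 6 rose and 2 fell, with a median of 1.34, while 27.1% of all genes there rose and 6.34% fell, with a median of 0.48.

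**Figure D2:**
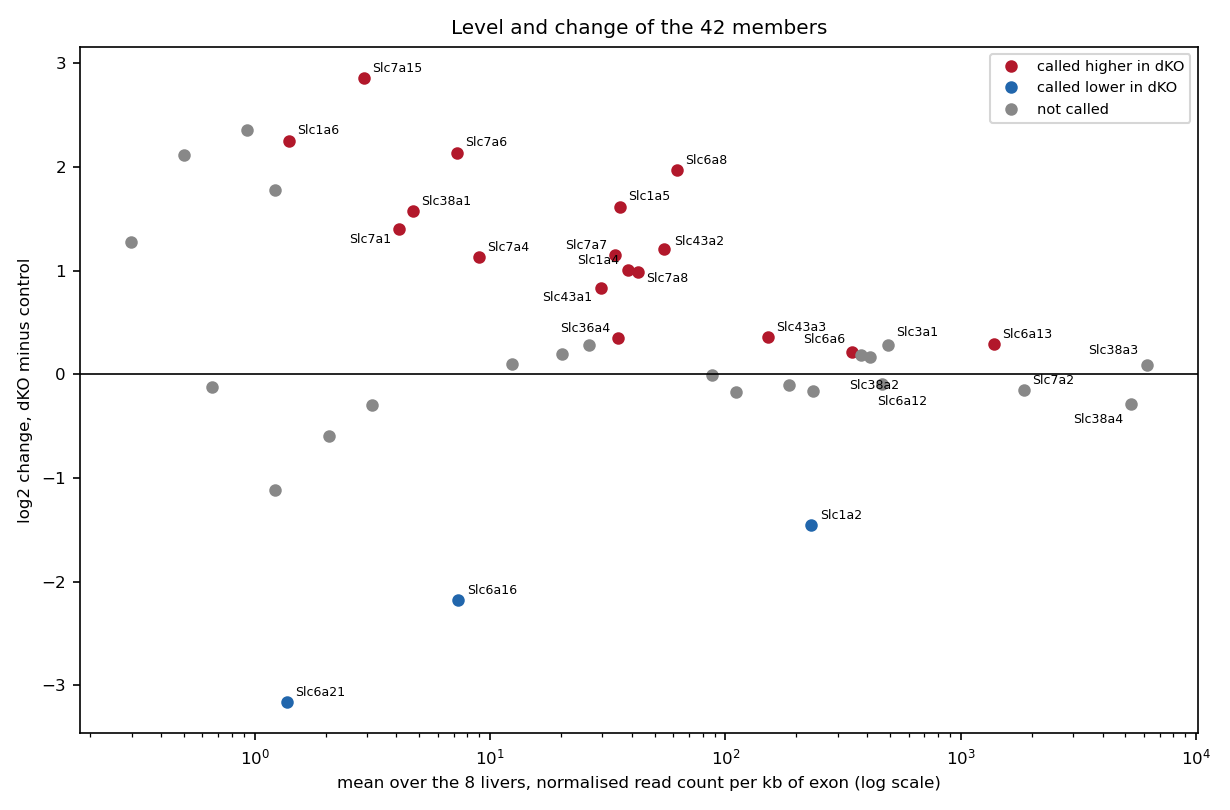
Log2 change of each member, dKO minus control, against its mean over the 8 livers in normalised read counts per kb of exon (log axis). The members at the right, Slc38a3, Slc38a4 and Slc7a2, lie within 0.29 of 0, and the called rises above 1 on the log2 scale all lie under 100 per kb.

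The glutamate and neutral amino acid carriers of family Slc1a moved in opposite directions, Slc1a4, Slc1a5 and Slc1a6 up and Slc1a2 down. Slc1a2 (GLT-1; ENSMUSG00000005089, chr2:102658659-102790784, plus strand) imports glutamate and, in liver, is a carrier of the hepatocytes around the central vein. Its values were 2068, 906, 1079.8 and 2869 in dKO livers, against 4425, 5616, 2998 and 4380.2 in control livers. The groups did not overlap, and dKO 4, the highest dKO liver, came within a small distance of control 3, the lowest control (log2 change −1.45 ± 0.31, adjusted p = 0.00245). Slc1a2 was the most abundant Slc1a member in both groups, with 132 per kb in dKO livers and 332 per kb in control livers. Other genes of that zone were lower too: 8 of 8 pericentral markers fell, Slc1a2 among them, and without Slc1a2 they summed to 41367 to 67156 in dKO livers and 182853 to 254532 in control livers. Periportal markers summed to 126291 to 155190 in dKO livers and 95385 to 108095 in control livers, with 5 of 8 higher and 1 lower. The part of these zonal shifts in the Slc1a2 value was not tested.

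Slc1a5 (ASCT2; ENSMUSG00000001918, chr7:16781340-16798274, plus strand), an exchanger of glutamine and other neutral amino acids, had 203, 199, 233 and 239 in dKO livers, against 51.3, 58.5, 57.9 and 144 in control livers. All dKO livers lay above all controls, and control 4 had more than 2 times the value of any other control (log2 change 1.62 ± 0.27, adjusted p = 4.57e-04). Without control 4 the log2 change was 1.96. Slc1a4 (ASCT1), which exchanges alanine, serine and cysteine, had 183, 223, 175 and 225 in dKO livers, against 72.9, 124, 107 and 101 in control livers, so every dKO liver lay above every control (log2 change 1.01 ± 0.17, adjusted p = 5.09e-04). The remaining 3 members had few reads. Slc1a6, known as a glutamate carrier of cerebellar Purkinje cells, had 22 reads over the dKO livers and 3 over the controls, 6.40 times as many after scaling (95% counting interval 1.92 to 33.4). It was called (log2 change 2.25 ± 0.75, adjusted p = 0.0311) with overlapping groups, and lost the call without dKO 1 (log2 change 1.93), dKO 2 (2.02), control 2 (1.92) or control 3 (1.92), under quantile normalization (2.01) and in DESeq2. The glutamate carriers Slc1a1 and Slc1a3 averaged 6.23 in dKO livers and 2.05 in control livers, and 5.17 in dKO livers and 6.14 in control livers, and were not called (adjusted p = 0.0591 and 0.91). Slc1a1 was called higher with a pseudocount of 5, with robust variances, and without control 1 (log2 change 2.75) or control 2 (2.53). Of the Slc1a1 exon bases, 31.9% are shared with 4430402I18Rik on the other strand, which averaged 14.0 in dKO livers and 19.2 in control livers.

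In family Slc7a, 6 of 9 members rose and none fell. These were the cationic amino acid carrier Slc7a1, the related Slc7a4, the light chains Slc7a6, Slc7a7 and Slc7a8, and Slc7a15. Slc7a8 (LAT2; ENSMUSG00000022180, chr14:54722209-54781946, minus strand), an exchanger of large and small neutral amino acids, had 276, 243, 268 and 339.8 in dKO livers, against 121, 152, 121 and 177 in control livers. Every dKO liver exceeded every control (log2 change 0.99 ± 0.15, adjusted p = 2.41e-04). Slc7a7, which exports cationic amino acids in exchange for neutral ones and is mutated in human lysinuric protein intolerance, had 145, 154, 186 and 137 in dKO livers, against 81.1, 86.2, 50.5 and 65.2 in control livers. These groups also stayed apart (log2 change 1.15 ± 0.19, adjusted p = 3.73e-04). Its exons share 7.0% of their bases with Oxa1l on the other strand, which averaged 714 in dKO livers and 897 in control livers. Macrophages are a known site of Slc7a7, and their marker sums are given above; their part was not tested. Slc7a6 (ENSMUSG00000031904, chr8:106168857-106198706, plus strand), a close relative with the same exchange, had 44.2, 49.9, 51.1 and 60.5 in dKO livers, against 7.19, 6.16, 9.47 and 36.6 in control livers. Controls 1 to 3 lay far below the dKO livers and control 4 came near them (log2 change 2.14 ± 0.47, adjusted p = 0.0031). Without control 4 its log2 change was 2.69.

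Of the cationic carriers, Slc7a1 was called and Slc7a2 was not. Slc7a1 (CAT1), the carrier of arginine and lysine in most tissues, which is kept low in adult liver, had 69.4, 56.4, 67.3 and 71.7 in dKO livers, against 24.6, 13.3, 18.9 and 58.3 in control livers. The groups overlapped, because control 4 exceeded dKO 2 (log2 change 1.40 ± 0.37, adjusted p = 0.00943), and without control 4 the log2 change was 1.81. Slc7a2 (CAT2), the main hepatic carrier of these amino acids, had 20889, 12515, 14852 and 16125 in dKO livers, against 16039, 19436, 15672 and 19608 in control livers. Its groups overlapped widely, with both the highest and the lowest liver in the dKO group (log2 change −0.15 ± 0.14, adjusted p = 0.435). Slc7a4, a family member whose transport activity is not established, had 48.3, 54.5, 60.5 and 41.0 in dKO livers, against 16.4, 27.7, 30.5 and 19.4 in control livers, with the groups apart (log2 change 1.13 ± 0.27, adjusted p = 0.00502), and lost its call under quantile normalization (log2 change 0.71). Its exons share 13.3% of their bases with P2rx6 on the other strand, which had 3.48 normalised read counts in dKO livers and 2.70 in control livers. Slc7a15 averaged 14.8 ± 0.915 in dKO livers and 2.63 ± 2.76 in control livers (log2 change 2.86 ± 0.70, adjusted p = 0.00627), with the groups apart.

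**Figure D3:**
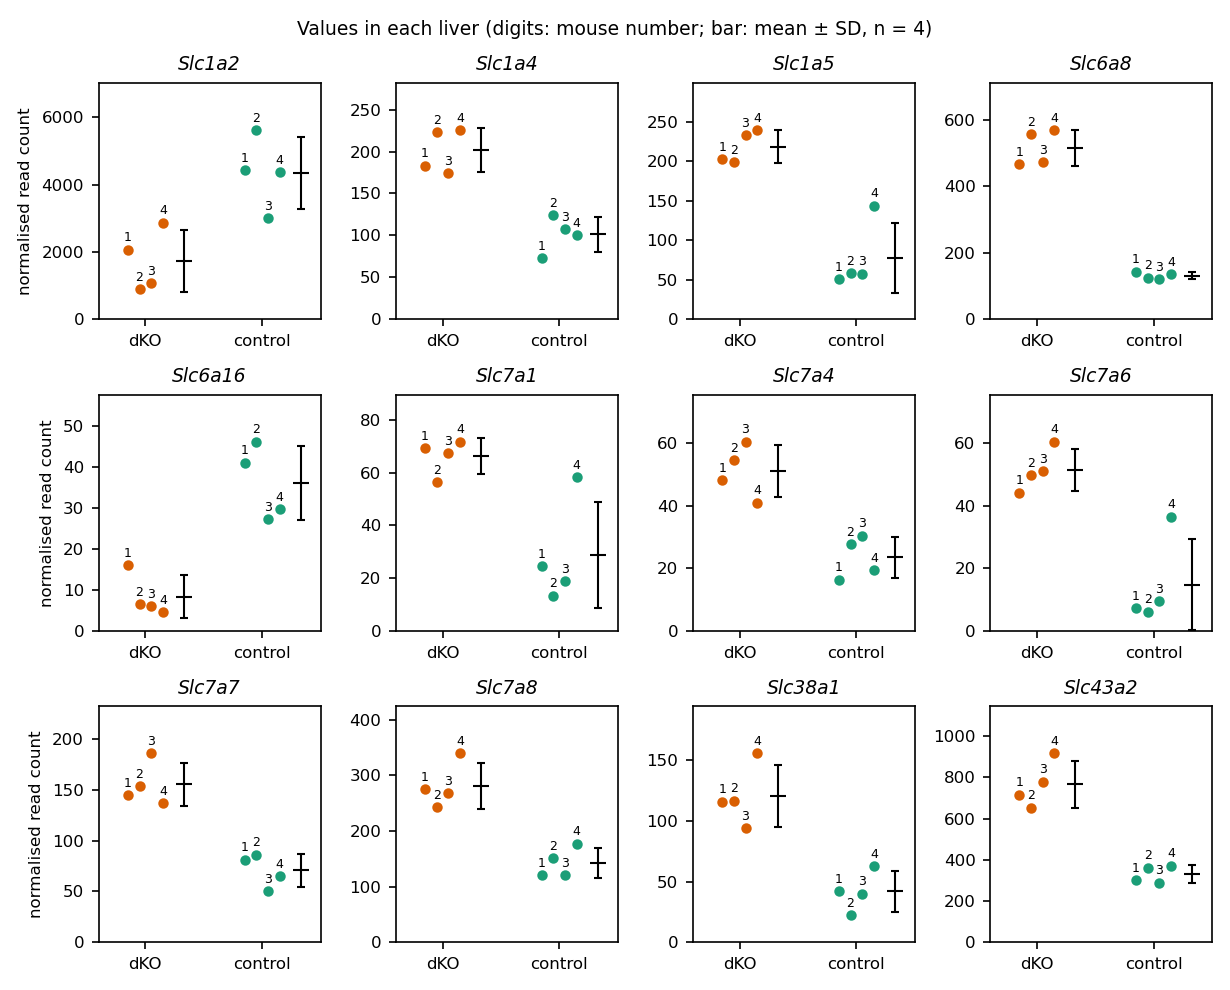
Normalised read counts of 12 members in each liver, dKO at the left and control at the right of each panel, with digits for the mouse number and bars for the mean ± SD of 4 livers. The groups are apart in all panels but Slc7a1, where control 4 lies among the dKO livers. Control 4 also lies above the other controls for Slc1a5, Slc7a6, Slc7a8, Slc38a1 and Slc43a2.

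The heavy chains in family Slc3a were not called. Slc3a2 (CD98), the partner of Slc7a5, Slc7a6, Slc7a7, Slc7a8 and Slc7a11, had 730.1, 866, 722 and 833 in dKO livers, against 1005, 898, 762 and 860.0 in control livers. The groups overlapped and the mean was slightly lower in dKO livers (log2 change −0.16 ± 0.10, adjusted p = 0.233). Slc3a1, the partner of Slc7a9 in kidney and gut, had 1664, 1199, 771 and 1296 in dKO livers, against 1327, 872, 954 and 817 in control livers, and its dKO livers spanned the control range at both ends (log2 change 0.29 ± 0.20, adjusted p = 0.3). Without dKO 3 it was called higher, with a log2 change of 0.49. Its exons share 26.5% of their bases with Prepl on the other strand, which averaged 842 in dKO livers and 689 in control livers. Its usual light chain, Slc7a9, had 1 read in each group. Slc7a5 (LAT1), the light chain that imports leucine and other large neutral amino acids and is typical of growing cells, had 101, 124, 97.1 and 106 in dKO livers, against 101, 103, 73.6 and 77.8 in control livers. These ranges overlapped (log2 change 0.28 ± 0.16, adjusted p = 0.21), and under quantile normalization the log2 change was 0.004. Slc7a11, the cystine and glutamate exchanger, had 3.02, 9.24, 23.0 and 27.9 in dKO livers, against 3.08, 0, 0 and 36.6 in control livers. It was not called (log2 change 2.36 ± 1.21, adjusted p = 0.148), control 4 held the highest value of all 8 livers, and without control 4 the log2 change was 3.67 and it was called.

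As a description chosen after these values were seen, the 5 members named above as light chains of Slc3a2 were summed per kb of exon. The sum was 136, 139.9, 149 and 153 in dKO livers, against 77.6, 85.3, 61.3 and 86.7 in control livers. Slc3a2 itself was 207, 246, 205 and 236 in dKO livers, against 285, 254, 216 and 244 in control livers, on the same scale. The light chains thus came to 65.6, 56.98, 72.6 and 64.8 in dKO livers, against 27.2, 33.5, 28.4 and 35.6 in control livers, in percent of the heavy chain. The means were 65.0 ± 6.40% in dKO livers and 31.2 ± 4.00% in control livers (SD, n = 4 each). Per kb of exon, the heavy chain was the more abundant transcript in every liver.

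**Figure D4:**
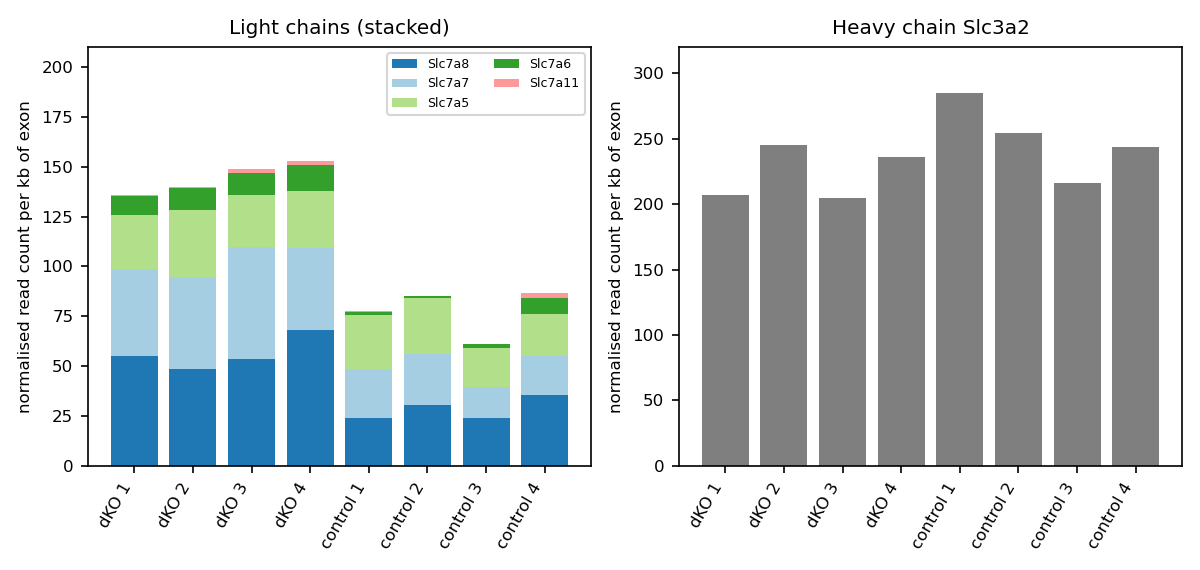
Left, levels of the light chains Slc7a8, Slc7a7, Slc7a5, Slc7a6 and Slc7a11, stacked, in normalised read counts per kb of exon for each liver; right, the heavy chain Slc3a2 on the same unit with a different axis range. The stacked sum is 136 to 153 per kb in dKO livers and 61.3 to 86.7 per kb in control livers, while the heavy chain ranges overlap.

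All 3 members of family Slc43a rose. Slc43a2 (LAT4; ENSMUSG00000038178, chr11:75531694-75577575, plus strand), which lets branched-chain amino acids, phenylalanine and methionine pass without sodium, had 715, 653, 779 and 916 in dKO livers, against 303, 362, 289 and 372 in control livers. The lowest dKO liver was well above the highest control (log2 change 1.20 ± 0.12, adjusted p = 7.93e-06). Slc43a1 (LAT3), a carrier of the same kind found in liver, averaged 211 ± 27.8 in dKO livers and 127 ± 61.0 in control livers. Its groups overlapped because control 4, at 217, lay within the dKO range (log2 change 0.83 ± 0.24, adjusted p = 0.0171). The call was lost without dKO 4 (log2 change 0.77), control 1 (0.67) or control 2 (0.73), and without control 4 the change was 1.12. Slc43a3, which carries purine bases and not amino acids, had 593, 788, 859 and 804 in dKO livers, against 587, 589.9, 533 and 651 in control livers. The groups overlapped at dKO 1, the change was small (log2 change 0.36 ± 0.11, adjusted p = 0.026), and the call was lost when any 1 of 6 livers was left out, with log2 changes of 0.29 to 0.36 (without dKO 2, dKO 3, dKO 4, control 1, control 2 or control 3). Slc43a1 and Slc43a3 lie 73.0 kb apart on chromosome 2.

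The Slc6a carriers, which use sodium and chloride, held the member with the smallest adjusted p of all 42, Slc6a8. Slc6a8 (ENSMUSG00000019558, chrX:73673150-73682502, plus strand) imports creatine, a compound made in liver for export to muscle and brain. Its values were 466, 557, 472 and 568 in dKO livers, against 144, 125, 119.9 and 136 in control livers. The lowest dKO liver had more than 3 times the value of the highest control (log2 change 1.97 ± 0.11, adjusted p = 7.57e-08). Slc6a13 (GAT2), a hepatic carrier of GABA and taurine and the most abundant Slc6a member, had 4478, 4791, 4185 and 4239 in dKO livers, against 3992, 3756, 3426 and 3308 in control livers. The shift was small and the groups did not overlap (log2 change 0.29 ± 0.08, adjusted p = 0.012). Slc6a6, the taurine carrier, averaged 3130.2 ± 316 in dKO livers and 2682 ± 59.6 in control livers (log2 change 0.22 ± 0.08, adjusted p = 0.0419). All dKO values were higher than all control values, dKO 1 was far above the rest, and the call was lost when dKO 1 (log2 change 0.15) or any 1 of the controls was left out (0.21 to 0.23).

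The other 8 Slc6a members fell or were not called. Slc6a16, an orphan member of the family, had 16.1, 6.47, 5.96 and 4.66 in dKO livers, against 41.1, 46.2, 27.4 and 29.7 in control livers. The groups were apart, with dKO 1 above the other dKO livers (log2 change −2.18 ± 0.41, adjusted p = 0.00102). Slc6a21 had 3 reads over the dKO livers and 38 over the controls, 0.0689 times as many after scaling, with 95% counting limits of 0.0136 and 0.217 (log2 change −3.16 ± 0.73, adjusted p = 0.0042). These 2 genes lie 4.1 kb apart on chromosome 7 on the same strand. The betaine and GABA carrier Slc6a12, whose gene lies 5.3 kb from Slc6a13, averaged 1361 ± 180.2 in dKO livers and 1451 ± 146 in control livers and was not called (adjusted p = 0.509). The glycine carrier Slc6a9 averaged 454 ± 107 in dKO livers and 451 ± 66.5 in control livers (adjusted p = 0.972). Its exons share 27.8% of their bases with Ccdc24 on the other strand, which averaged 1.88 in dKO livers and 11.4 in control livers. The serotonin carrier Slc6a4, the proline carrier Slc6a7, the vesicular carrier Slc6a17 and the gut and kidney carrier Slc6a19 averaged between 2.86 and 12.0 in either group and were not called. Without control 4, Slc6a19 was called higher (log2 change 2.48).

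In family Slc38a, the sodium-coupled carriers of glutamine and alanine, 1 of 9 members rose and none fell. The member that rose was Slc38a1 (SNAT1; ENSMUSG00000023169, chr15:96571418-96642913, minus strand), which takes up glutamine in many tissues and is low in adult hepatocytes. Its values were 116, 116, 93.7 and 156 in dKO livers, against 42.1, 22.6, 40.0 and 62.9 in control livers. The groups were apart, with control 4 the highest control (log2 change 1.58 ± 0.28, adjusted p = 6.96e-04). Slc38a3 (SNAT3), the main hepatic glutamine carrier, which runs in either direction, had 37158, 30588, 34305 and 31779 in dKO livers, against 24515, 33348, 30402 and 38690.0 in control livers. Controls spanned a wider range than dKO livers and enclosed them (log2 change 0.09 ± 0.13, adjusted p = 0.631). Slc38a4 (SNAT4), an alanine carrier found mainly in liver, had 24767, 16298, 21554 and 19332 in dKO livers, against 23028, 25162, 24749 and 25841 in control livers. Its dKO livers were lower except dKO 1, and it was not called (log2 change −0.28 ± 0.12, adjusted p = 0.0793), although without dKO 1 it was, with a log2 change of −0.38, and under quantile normalization the change was 0.03. Slc38a2 (SNAT2), the carrier that many cells raise when amino acids run short, had 3648, 2690.4, 4956 and 4103 in dKO livers, against 3689.5, 4209.5, 2506 and 3259 in control livers, and was not called (log2 change 0.16 ± 0.18, adjusted p = 0.515). Here dKO 3 was the highest liver, and the other 3 dKO livers lay within the control range. Slc38a1, Slc38a2 and Slc38a4 neighbour each other on chromosome 15, with 44.5 kb between the first pair and 295.1 kb between the second. The lysosomal carriers Slc38a7, a glutamine exporter, and Slc38a9, an arginine sensor for mTORC1, averaged 435 in dKO livers and 489 in control livers, and 213 in dKO livers and 199.9 in control livers, with log2 changes of −0.17 and 0.10, neither called. The log2 changes of Slc38a6, Slc38a10 and Slc38a11 were 0.19, 0.19 and −0.60, and none was called. Slc38a10 was called higher under quantile normalization (log2 change 0.30) and without control 1 (0.25).

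The proton-coupled family Slc36a had 2 members. Slc36a1, found on lysosomes, had 1059, 892, 996 and 1081 in dKO livers, against 1109, 1051, 1122 and 1041 in control livers. The dKO livers were partly below and partly within the control range (log2 change −0.10 ± 0.08, adjusted p = 0.327). Slc36a4, a carrier of proline and tryptophan, averaged 257 ± 12.8 in dKO livers and 202 ± 21.5 in control livers (log2 change 0.35 ± 0.11, adjusted p = 0.0218). Its groups were apart, and the call was lost without dKO 4 (log2 change 0.32), control 1 (0.29) or control 2 (0.33), and under quantile normalization (0.26).

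Of the 51 matching genes, 9 had means under 3 and were left out of the counts. Slc1a7 lay just outside with a mean of 2.86, and Slc1a6 (3.01) and Slc6a17 (3.08) just inside. Slc36a2 had 14 reads over the dKO livers and none over the controls, and Slc7a3 had 16 reads over the dKO livers and 1 over the controls. The other 6 had 0 to 8 reads in either group.

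Within each liver, 5 pairs of carriers were compared by the log2 ratio of their values, in which a scaling factor of the library cancels but for the 0.5 added. With 4 livers against 4, the exact permutation test (70 assignments, 2-sided, adjusted over the 5 pairs) can give no p below 0.0286. The ratio of Slc1a5 to Slc1a2, the glutamine exchanger over the pericentral glutamate carrier, averaged −2.83 ± 0.74 in dKO livers and −5.90 ± 0.76 in control livers, a difference of 3.07 (SD, n = 4 each; exact permutation p = 0.0286, adjusted p = 0.0476). Slc1a5 was higher and Slc1a2 lower in every dKO liver than in every control. For this pair the p before adjustment was therefore bound to be the smallest possible, and it adds nothing to those results. Per kb of exon, the level of Slc1a5 as a percentage of that of Slc1a2 was 30.9, 69.0, 68.0 and 26.2 in dKO livers, against 3.65, 3.28, 6.07 and 10.3 in control livers. The ratio of Slc7a1 to Slc7a2, the widespread over the hepatic cationic carrier, averaged −7.90 ± 0.22 in dKO livers and −9.45 ± 0.86 in control livers, a difference of 1.56 (SD, n = 4 each; exact permutation p = 0.0286, adjusted p = 0.0476). The ratio of Slc7a5 to its heavy chain Slc3a2 averaged −2.88 ± 0.07 in dKO livers and −3.31 ± 0.14 in control livers, a difference of 0.44 (SD, n = 4 each; exact permutation p = 0.0286, adjusted p = 0.0476). Every dKO liver had a higher ratio than every control for these 3 pairs. The adjusted p of 0.0476 rests on all 3 standing at the smallest possible p. For Slc7a1 over Slc7a2 and Slc7a5 over Slc3a2 it leans on the pair whose p was bound. Without that pair it would not be below 0.05. The ratio of Slc7a5 to Slc7a8 averaged −1.39 ± 0.30 in dKO livers and −0.68 ± 0.38 in control livers, a difference of −0.71 (SD, n = 4 each; exact permutation p = 0.0571, adjusted p = 0.0714). The ratio of Slc38a2 to Slc38a4 averaged −2.43 ± 0.30 in dKO livers and −2.88 ± 0.34 in control livers, a difference of 0.45 (SD, n = 4 each; exact permutation p = 0.143, adjusted p = 0.143). These last 2 pairs overlapped between groups. For the first 3 pairs the adjusted p was 0.0714 to 0.0952 when any 1 dKO liver was left out, and 0.0476 when any 1 control was left out. Under quantile normalization, tried after the data were seen, none of the 3 passed: the difference was 2.71 for Slc1a5 over Slc1a2 (exact permutation, adjusted p = 0.0952), with the groups still apart, 0.85 for Slc7a1 over Slc7a2 (exact permutation, adjusted p = 0.0952) and 0.14 for Slc7a5 over Slc3a2 (exact permutation, adjusted p = 0.343), with overlapping groups for the last 2.

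Enzymes that use glutamine and glutamate changed in both directions: 6 of 15 rose and 4 fell, with a median log2 change of 0.10. Over all 20055 genes tested, 4244 were higher and 3410 lower, with a median of 0.03. Glul, glutamine synthetase, which in liver is confined to the cells next to the central vein, had 7292, 6796, 7254 and 10741 in dKO livers, against 22079, 22089.9, 19199 and 21840.5 in control livers. The fall left the groups far apart (log2 change −1.43 ± 0.13, adjusted p = 3.81e-06), and Glul is itself among the 8 pericentral markers that fell. Gclc, the catalytic subunit of the first enzyme of glutathione synthesis, averaged 3486 ± 218 in dKO livers and 7584 ± 948 in control livers (log2 change −1.11 ± 0.09, adjusted p = 1.96e-06). Gclm, the other subunit of that enzyme, and Gss, the second enzyme, were called higher (log2 changes 0.235 and 0.797). Asns, which makes asparagine with nitrogen from glutamine, had 958, 548, 704 and 817 in dKO livers, against 33.9, 62.6, 97.8 and 41.2 in control livers. The difference was more than 12-fold between means (log2 change 3.76 ± 0.28, adjusted p = 7.99e-07).

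Among regulators of the response to amino acid shortage, 6 of 19 rose and 4 fell, with a median of 0.17. Of all 20055 genes tested, 4244 rose and 3410 fell. Atf3, a stress-induced transcription factor, averaged 307 ± 98.3 in dKO livers and 16.9 ± 12.9 in control livers (log2 change 4.35 ± 0.43, adjusted p = 7.45e-06). Ddit4, an inhibitor of mTORC1, averaged 955 ± 172 in dKO livers and 294 ± 57.7 in control livers (log2 change 1.71 ± 0.15, adjusted p = 3.68e-06), and Nupr1, a stress-induced chromatin protein, averaged 98.9 ± 14.2 in dKO livers and 21.2 ± 8.34 in control livers (log2 change 2.25 ± 0.27, adjusted p = 3.27e-05). Vldlr, a lipoprotein receptor, averaged 21.7 ± 11.2 in dKO livers and 129 ± 38.2 in control livers (log2 change −2.61 ± 0.34, adjusted p = 6.37e-05). Other members of the list went either way: Cebpb, Ddit3 and Eif2s1 also rose (log2 changes 0.55, 0.42 and 0.24), while Trib3, Atf5 and Eif2ak1 fell (−0.88, −0.67 and −0.53), and Atf4, the central factor of the response, and Chac1 were not called (−0.25 and 0.12). Of the transporters known as targets of this response, Slc3a2, Slc7a5 and Slc38a2 were not called, and Slc7a11 was called only without control 4. Slc1a4, Slc1a5 and Slc7a1, also known targets, were called higher (log2 changes 1.01, 1.62 and 1.40). The part of this response in the members' changes was not tested.

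Amino acid sensing by mTORC1, the kinase complex that drives growth when amino acids are present, had 6 of 35 genes higher and 11 lower, with a median of −0.16. Of all 20055 genes tested, 4244 were higher and 3410 lower. Rragd, a GTPase that recruits mTORC1 to the lysosome, had 434, 708, 776 and 404 in dKO livers, against 18.5, 40.0, 32.6 and 29.7 in control livers, so the lowest dKO liver was about an order of magnitude above the highest control (log2 change 4.24 ± 0.26, adjusted p = 1.56e-07). The subunits Wdr24, Nprl2 and Wdr59 of the GATOR complexes, which relay amino acid levels, were lower, as were Depdc5 and Mios (log2 changes −0.46 and −0.35). The subunit Sec13 was higher (0.31), and Nprl3 and Seh1l were not called (−0.16 and −0.18). Wdr24 averaged 262 ± 14.9 in dKO livers and 372 ± 20.1 in control livers (log2 change −0.50 ± 0.09, adjusted p = 7.88e-04). Nprl2 averaged 153 ± 8.42 in dKO livers and 229.7 ± 19.0 in control livers (log2 change −0.58 ± 0.11, adjusted p = 0.0011), and Wdr59 averaged 184 ± 23.6 in dKO livers and 287 ± 27.3 in control livers (log2 change −0.65 ± 0.12, adjusted p = 0.00116).

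Partners and regulators of the carriers had 5 of 12 genes higher and 4 lower, with a median of 0.10, beside 4244 higher and 3410 lower of all 20055 genes tested. Sgk1, a kinase known to raise the surface level of several amino acid carriers, averaged 1049.6 ± 86.8 in dKO livers and 465 ± 69.2 in control livers (log2 change 1.18 ± 0.11, adjusted p = 4.37e-06). Arrdc3, an arrestin-like adaptor that draws membrane proteins into endosomes, had 624, 692, 964 and 787 in dKO livers, against 5044, 2548, 3215 and 2422 in control livers, with no overlap (log2 change −2.06 ± 0.20, adjusted p = 7.03e-06). Cd44, a cell-surface protein that stabilises Slc7a11 in human cancer cells, averaged 635 ± 102 in dKO livers and 231 ± 121 in control livers (log2 change 1.57 ± 0.26, adjusted p = 4.14e-04), and Myc, a growth factor-responsive transcription factor, averaged 222 ± 36.8 in dKO livers and 82.1 ± 54.7 in control livers (log2 change 1.63 ± 0.34, adjusted p = 0.00231). For Cd44 and Myc, control 4 was the highest control. Amino acid and peptide carriers of other families had 5 of 23 genes higher and 2 lower, with a median of 0.05. The share that rose was close to that of all 20055 genes tested, of which 4244 were higher and 3410 lower. Slc15a3 and Slc15a4, histidine and peptide carriers of endolysosomes in immune cells, averaged 282 ± 26.1 in dKO livers and 149 ± 31.1 in control livers (log2 change 0.94 ± 0.15, adjusted p = 3.69e-04), and 797 ± 41.4 in dKO livers and 572 ± 36.1 in control livers (log2 change 0.48 ± 0.08, adjusted p = 4.35e-04). Slc25a13, the mitochondrial aspartate and glutamate carrier citrin, averaged 3391 ± 149.7 in dKO livers and 4638 ± 475 in control livers (log2 change −0.45 ± 0.08, adjusted p = 9.12e-04), and Sfxn3, of the mitochondrial sideroflexin family, averaged 137 ± 16.1 in dKO livers and 59.4 ± 25.4 in control livers (log2 change 1.28 ± 0.25, adjusted p = 0.00133).

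Promoter windows from RefSeq (GRCm38.p6, 250 bases before to 50 after the start of transcription) matched 32 of the 42 members. They were searched on both strands for 4 motifs, and a match in any window of a gene counted. A gene with more windows thus had more chances of a match. Several members, such as Slc6a12 and Slc7a7, have more than 1 window. The number of windows per gene was not matched between the members and all genes. The amino acid response element, TGATGNAAT, was in 1 of 32 members, Slc6a21, which fell, and in 1.08% of 27025 genes. The core of the antioxidant response element, TGACNNNGC, was in 8 members and in 14.0% of genes. Of these 8, Slc6a13, Slc7a1, Slc7a6 and Slc43a1 rose, Slc6a16 fell, and Slc6a9, Slc36a1 and Slc38a2 were not called. The AP-1 motif, TGANTCA, which reads the same on both strands and can overlap the antioxidant core, was in 6 members and in 8.97% of genes, and the E-box CACGTG, also the same on both strands, was in 5 members and in 8.09%. The windows of Slc7a1 and Slc7a6 are shown because both genes rose by more than 2-fold and hold the antioxidant core (capitals; in Slc7a1 also the AP-1 motif). The Slc7a1 window is on the minus strand at chr5:148399855-148400154 and the Slc7a6 window on the plus strand at chr8:106168604-106168903.
Slc7a1 promoter: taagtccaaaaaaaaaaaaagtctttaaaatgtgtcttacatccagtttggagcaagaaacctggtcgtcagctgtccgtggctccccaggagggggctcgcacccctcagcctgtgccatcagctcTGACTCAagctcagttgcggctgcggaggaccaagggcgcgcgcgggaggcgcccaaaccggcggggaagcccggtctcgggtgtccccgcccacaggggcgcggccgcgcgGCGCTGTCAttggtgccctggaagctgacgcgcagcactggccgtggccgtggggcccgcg
Slc7a6 promoter: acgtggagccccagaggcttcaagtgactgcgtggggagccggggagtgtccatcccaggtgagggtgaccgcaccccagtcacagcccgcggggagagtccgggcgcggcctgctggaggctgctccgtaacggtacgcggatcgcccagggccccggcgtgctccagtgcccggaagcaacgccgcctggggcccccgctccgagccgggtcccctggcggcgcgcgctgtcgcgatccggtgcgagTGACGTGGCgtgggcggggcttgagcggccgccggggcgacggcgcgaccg
Each gene has a further annotated start whose window is not printed, and the absence of a motif says only that its letters are not in these windows.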

How the data were processed

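Liver RNA of 4 dKO and 4 control mice was sequenced. The build mm10 and the tools DESeq2, featureCounts 1.5.0-p3, HISAT2 2.0.5 and fastp are named, without roles, per the submitters' processing notes. Annotation, strand setting and filters are not given in the sources, so overlapping genes can share reads. The deposited signal is named for FPKM, but all values in a library (100%, within 0.001) are whole multiples of a fixed step, with no length division: the authors' values are read counts divided by a size factor. The design had assumed another normalised unit, and its log-scale test was kept. The step of dKO 1 is too close to 1 to be told from rounding by an automatic check.

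Values were taken as log2(value + 0.5) for 20055 genes with a mean of 0.5 or more and compared in limma 3.58.1 under R 4.3.3 (trended eBayes). All 42 members passed that filter. Alternatives were pseudocounts of 1 and 5, no filter, a filter at a mean of 10, quantile normalization, robust variances, edgeR 4.0.16 and DESeq2 1.42.0 on the recovered reads, a replicate block and leaving out each liver. Of 22052 identifiers, 21796 matched a symbol; exon lengths, 3' UTRs and positions came from GENCODE M21 (GRCm38) and promoters from RefSeq. Values in every liver are given for called members with a mean of 20 or more and a log2 change of at least 1 either way, the most abundant member of each family and the members of the pairs, and for Slc7a11, chosen after its values were seen; up to 4 called genes are named per linked list. Results for some genes are not reported here. The members, lists and tests were chosen with earlier results of these data known. Each mouse is 1 library. Counting intervals, at 95%, cover counting error only.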

Additional observations from a re-analysis of the deposited data

Results flagged for a closer look

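In 6 of the 84 member-by-group sets of 4 livers, 1 liver lay far from the other 3, with a gap to its nearest neighbour that took up most of the group's range; chance gives about 1 in 20 such sets. In 4 of them the liver was control 4. Slc1a5 was 144 in control 4 and 51.3 to 58.5 in the other controls. Slc7a6 was 36.6 in control 4 and 6.16 to 9.47 in the other controls. Slc7a11 was also 36.6 in control 4 and 0 to 3.08 in the other controls. Slc6a17 was 11.4 in control 4 and listed at 0 in the other controls. The other 2 were dKO 1: Slc6a6 was 3604 there and 2964 to 2982 in the other dKO livers, and Slc6a16 was 16.1 there and 4.66 to 6.47 in the other dKO livers.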

How the results depend on the processing

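Of the 20 called members, 14 kept their call under each of the 17 alternatives that gave a value, 6 lost it in at least 1 (Slc1a6, Slc6a6, Slc7a4, Slc36a4, Slc43a1 and Slc43a3), and none changed direction. Of the 22 uncalled members, 7 were called under at least 1. Members higher numbered 15 to 18, and 13 to 18 with 1 liver left out; members lower numbered 2 to 4, and 3 to 4. Members higher by 2-fold or more numbered 6 under quantile normalization, which moves the median of all genes to −0.08 log2 against 0.03, and 9 to 15 with 1 liver left out (15 without control 4). Under quantile normalization Slc1a6 (log2 change 2.01), Slc7a4 (0.71) and Slc36a4 (0.26) lost their call, as did the log2 ratios, in an alternative chosen after seeing the data, with differences of 2.71 (Slc1a5 over Slc1a2), 0.85 (Slc7a1 over Slc7a2) and 0.14 (Slc7a5 over Slc3a2). Some uncalled members changed sign: under quantile normalization Slc7a2 (0.13), Slc38a4 (0.032) and Slc38a9 (−0.022), and Slc6a9 under edgeR (0.013) and DESeq2 (0.009). With 1 liver left out Slc1a3 ran −0.731 to 0.240, Slc6a9 −0.141 to 0.095 and Slc38a3 −0.026 to 0.193. With 1 liver left out the log2 ratio differences ran 2.84 to 3.39 (Slc1a5 over Slc1a2), 0.39 to 0.50 (Slc7a5 over Slc3a2) and 1.22 to 1.91 (Slc7a1 over Slc7a2). The cause of these differences was not tested. Mouse numbers did not pair the livers (correlations of deviations for the same number −0.07 to 0.08), and with the number as a replicate block 16 members were higher and 3 lower, with the call of Slc6a6 lost and no other member's call changed. A value of 0 in a library allows up to 2.55 to 3.43 normalised read counts (3 reads, counting error only).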
